A study of Rattus norvegicus with 6 samples.

Results

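The hypoxia- and metabolism-related miRNAs miR-210, miR-103, miR-107 and miR-378a were followed in small RNA libraries of rat nucleus pulposus, the soft inner tissue of the intervertebral disc. Members were the rows whose mature name, after the rno- prefix, begins with miR-210-, miR-103-, miR-107- or miR-378a-. The rule found 6 of 491 rows. After rows that repeat a sequence were merged, these were 5 of 442 distinct mature sequences, namely miR-210-3p, miR-210-5p, miR-103-3p, miR-378a-3p and miR-378a-5p. No row begins with miR-107-. The IDD group (3 libraries) came from discs compressed for 4 weeks to induce degeneration, and the Sham group (3 libraries) from rats that the labels describe by K-wires (Kirschner wires, thin metal pins) kept for the same 4 weeks. Further details of the sham procedure are not given by the labels. No source used here gives strain, age or sex, nor whether each library is from its own animal, and the p-values reflect only how these libraries vary. The study asked which miRNAs respond to mechanical load in the degenerating disc.

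The healthy nucleus pulposus has no blood vessels, and its cells live at low oxygen tension and rely largely on glycolysis. miR-210 is the miRNA most regularly induced by the hypoxia-inducible factor HIF-1, and in human cells it represses ISCU, a scaffold protein for the iron-sulfur clusters of the respiratory chain. miR-103 and miR-107 lie in introns of the pantothenate kinase genes, whose products start coenzyme A synthesis, and in mice they lower insulin sensitivity through caveolin-1. miR-378a lies in an intron of Ppargc1b, which encodes the mitochondrial regulator PGC-1beta, and mouse studies tie its 2 arms to lipid and energy metabolism.

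The mature sequences are shown 5′ to 3′ with the seed, bases 2 to 8, in capitals, because the seed sets which mRNAs a miRNA can pair with and shows which members could act on the same ones. The first 5 are the deposited sequences, and all 5 are identical to RefSeq entries (GRCr8). miR-107-3p is the RefSeq entry, shown because it is almost the same as miR-103-3p.
miR-210-3p: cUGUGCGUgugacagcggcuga
miR-210-5p: aGCCACUGcccacagcacacug
miR-103-3p: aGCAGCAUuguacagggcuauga
miR-107-3p: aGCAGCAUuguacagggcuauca
miR-378a-3p: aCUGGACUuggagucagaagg
miR-378a-5p: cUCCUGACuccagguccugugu
miR-103-3p and miR-107-3p share their seed and differ by the single substitution G22C, counted from the 5′ end with the base of miR-103-3p first. No source used here says how the counting treated tags that stop before this base, so the miR-103-3p count is uncertain with regard to miR-107. The other members each have a seed of their own, and the 2 arms of miR-210 and of miR-378a do not share one.

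On RefSeq's rat assembly GRCr8, which is not the Rnor_6.0 build named in the submitters' processing notes, miR-210-3p lies at chr1:205755946-205755967 and miR-210-5p at chr1:205755984-205756005, on the minus strand within a long noncoding RNA gene. miR-378a-3p lies at chr18:57128925-57128945 and miR-378a-5p at chr18:57128962-57128983, on the minus strand within Ppargc1b. miR-103-3p lies at chr3:138963278-138963300 on the plus strand, in the precursor Mir103a2 within Pank2. The same 23 bases are also made by the precursor Mir103a1, at chr10:20748474-20748559 on the plus strand within Pank3. The RefSeq precursors are shown with the listed mature arms in capitals, because the pair of miR-103 precursors differ in their flanks and loop but not in the arm that was counted.
Mir103a1: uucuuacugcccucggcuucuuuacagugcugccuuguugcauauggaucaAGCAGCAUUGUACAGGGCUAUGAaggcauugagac
Mir103a2: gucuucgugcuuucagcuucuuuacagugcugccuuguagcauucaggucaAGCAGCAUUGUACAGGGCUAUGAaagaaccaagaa
Mir210: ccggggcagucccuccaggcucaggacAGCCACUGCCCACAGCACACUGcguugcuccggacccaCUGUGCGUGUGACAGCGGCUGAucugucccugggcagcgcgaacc
The miR-103 precursors carry the same base at 69 of 86 positions. Their 2 rows hold identical counts, so miR-103-3p was counted once and the output of Pank2 and Pank3 cannot be told apart. RefSeq also lists Mir3574 over Mir210 and Mir3557 over Mir378, and no row carries either name.

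The libraries held 169783 to 253807 tags after merging, and depth did not separate the groups. Tags ending in CCA, nearly all under provisional names, took 15.0% to 20.05% of an IDD library and 40.9% to 48.1% of a Sham library, so tags of established miRNAs numbered 147728 to 204707 in IDD and 95412 to 135609 in Sham. A level therefore depends on its denominator, and each member is given under several. The main level is CPM, in which each count is divided by its library total and brought to a common size, with totals scaled by the trimmed mean of M-values (TMM). The test was edgeR's quasi-likelihood test over the 131 sequences abundant enough to test, with Benjamini-Hochberg adjustment and a threshold of 0.05, and standard errors (SE) were derived from its F statistic. The cartilage miRNAs miR-140 and miR-455 were listed in every library, summing to 115782 to 120978 CPM in IDD and 90837 to 103211 CPM in Sham. Most of this was miR-140-3p, with means of 111169 CPM in IDD and 90943 CPM in Sham. Groups overlapped for miR-140-5p and miR-455-5p. miR-455-3p was higher in every IDD library but met the minimum count for testing in the IDD libraries alone. In bulk tissue, fewer cells of a type and less RNA per cell cannot be told apart.

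Of the 5 members, 4 passed the filter on low counts and 3 of these passed the test. miR-103-3p rose 1.73-fold and miR-210-3p fell 1.26-fold in compressed discs, and miR-378a-3p did not pass. The other call, miR-378a-5p (1.9-fold higher), entered the test only through the IDD libraries, where it is high. That call is no support for a difference. Over all 131 tested sequences 59.5% were called, 29% higher and 30.5% lower in IDD, so 3 calls among 4 tested members is near the background. In CPM the groups did not overlap for any of the 4, against 66.4% of all tested sequences. miR-103-3p is the member whose call and direction held under every scaling tried, whereas the calls of miR-210-3p and miR-378a-5p did not.

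**Figure D1:**
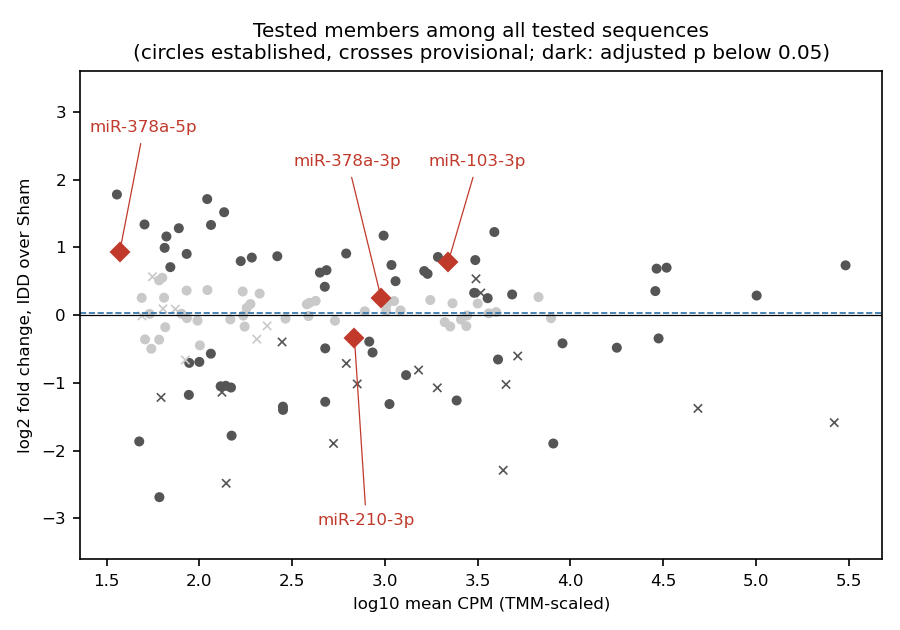
Each point is 1 of the 131 tested sequences, with its mean level (log10 CPM) on the x axis and its log2 fold change of IDD over Sham on the y axis, where the dashed line is the median of 0.03. Circles are established and crosses provisional names, dark where the adjusted p is below 0.05. Members are red diamonds, and 2 sequences beyond 3.5 on the y axis are not drawn. miR-103-3p and miR-378a-5p lie above the bulk of points, while miR-378a-3p and miR-210-3p lie close to it on opposite sides.

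miR-210-3p, the arm of miR-210 that acts in hypoxia, was counted 139, 117 and 165 times in IDD 1, 2 and 3 and 162, 191 and 128 times in Sham 1, 2 and 3. After TMM scaling this was 538, 598 and 688 CPM in IDD and 761, 803 and 722 CPM in Sham. All 3 IDD libraries lay below all 3 Sham libraries, as did 30.5% of the tested sequences. The mean level fell from 762 ± 40.7 CPM in Sham to 608 ± 75.5 CPM in IDD (SD, n = 3 each), a log2 fold change of −0.33 (SE 0.12, edgeR quasi-likelihood adjusted p = 0.0339). The ratio of summed counts was 0.792, with a 95% exact counting interval of 0.693 to 0.905. The call was lost without IDD 1 (log2 −0.24, adjusted p = 0.122), without IDD 2 (−0.35, adjusted p = 0.125) and without Sham 2 (−0.32, adjusted p = 0.163).

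The fall of miR-210-3p also depended on the denominator. As unscaled CPM of the whole library it stood at 564, 616 and 768 in IDD and 638, 759 and 754 in Sham, and the groups overlapped. As CPM of established miRNA tags alone it stood at 679, 792 and 944 in IDD and 1290, 1408 and 1342 in Sham, with a wide gap between the groups. The log2 fold change was −0.14 with library size alone (edgeR adjusted p = 0.411) and −0.75 with the total of established miRNAs (edgeR adjusted p = 0.000340). In the authors' deposited normalized values miR-210-3p stood at 80, 85 and 97 in IDD and at 86, 96 and 98 in Sham, again overlapping. Its sign was negative under all 23 alternatives, from −0.75 to −0.09.

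miR-210-5p, the other arm, was listed in Sham 3 alone, with 2 tags, and was blank in the other 5 libraries. It took 2 of 483 miR-210 tags in the Sham libraries together, or 0.414% (95% exact Clopper-Pearson interval 0.0502% to 1.49%). In IDD it took 0 of 421, with an upper Clopper-Pearson bound of 0.872% (3 counts would be 0.713%). Blank cells were counted as 0 although the lowest listed count is 2. Unlisted tags could therefore make both shares and their bounds higher. A difference between the groups in this arm was not detectable at this depth.

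miR-103-3p, the most abundant member, was counted 788, 523 and 634 times in IDD and 324, 407 and 283 times in Sham. Its level was 3048, 2674 and 2642 CPM in IDD and 1522, 1711 and 1595 CPM in Sham. The lowest IDD library lay well above the highest Sham library, and all IDD values exceeded all Sham values in 35.9% of the tested sequences. The mean level rose from 1610 ± 95.3 to 2788 ± 226 CPM (SD, n = 3 each), with a log2 fold change of 0.79 (SE 0.11, edgeR quasi-likelihood adjusted p = 4.94e-05). The counting interval of its summed ratio of 1.74 ran from 1.61 to 1.87.

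The rise of miR-103-3p held under each scaling. As unscaled CPM of the whole library it stood at 3198, 2756 and 2952 in IDD and 1277, 1617 and 1667 in Sham. As CPM of established miRNA tags alone it stood at 3849, 3540 and 3629 in IDD and 2580, 3001 and 2966 in Sham, a narrower gap but still without overlap. Over 23 alternatives the log2 fold change ran from 0.37 to 1.02, and the adjusted p was 0.00982 or lower in each. Of the tested sequences with an established name, those whose centred log2 CPM over the 6 libraries ran closest to miR-103-3p were miR-152-3p, miR-378a-5p and miR-1b. Their root mean square differences were 0.05, 0.08 and 0.09, against a median of 0.40 over 107 sequences. miR-1b is a muscle miRNA that human nomenclature calls miR-1. The skeletal muscle miRNAs summed to 349802 to 413196 CPM in IDD and 217833 to 241246 CPM in Sham. By far the most abundant is miR-1b, with means of 380906 CPM in IDD and 228694 CPM in Sham. Of the 5 tested sequences of this list, 3 were called higher in IDD and 2 were not called. Groups overlapped for both of these, miR-133a-3p (75.3 CPM in IDD, 50.8 CPM in Sham) and miR-499-5p (94.2 and 101 CPM). Too low to test, miR-133a-5p stood at 13.1 CPM in IDD and 19.4 CPM in Sham. The part of the muscle miRNAs in the miR-103-3p and miR-378a-5p results was not tested.

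**Figure D2:**
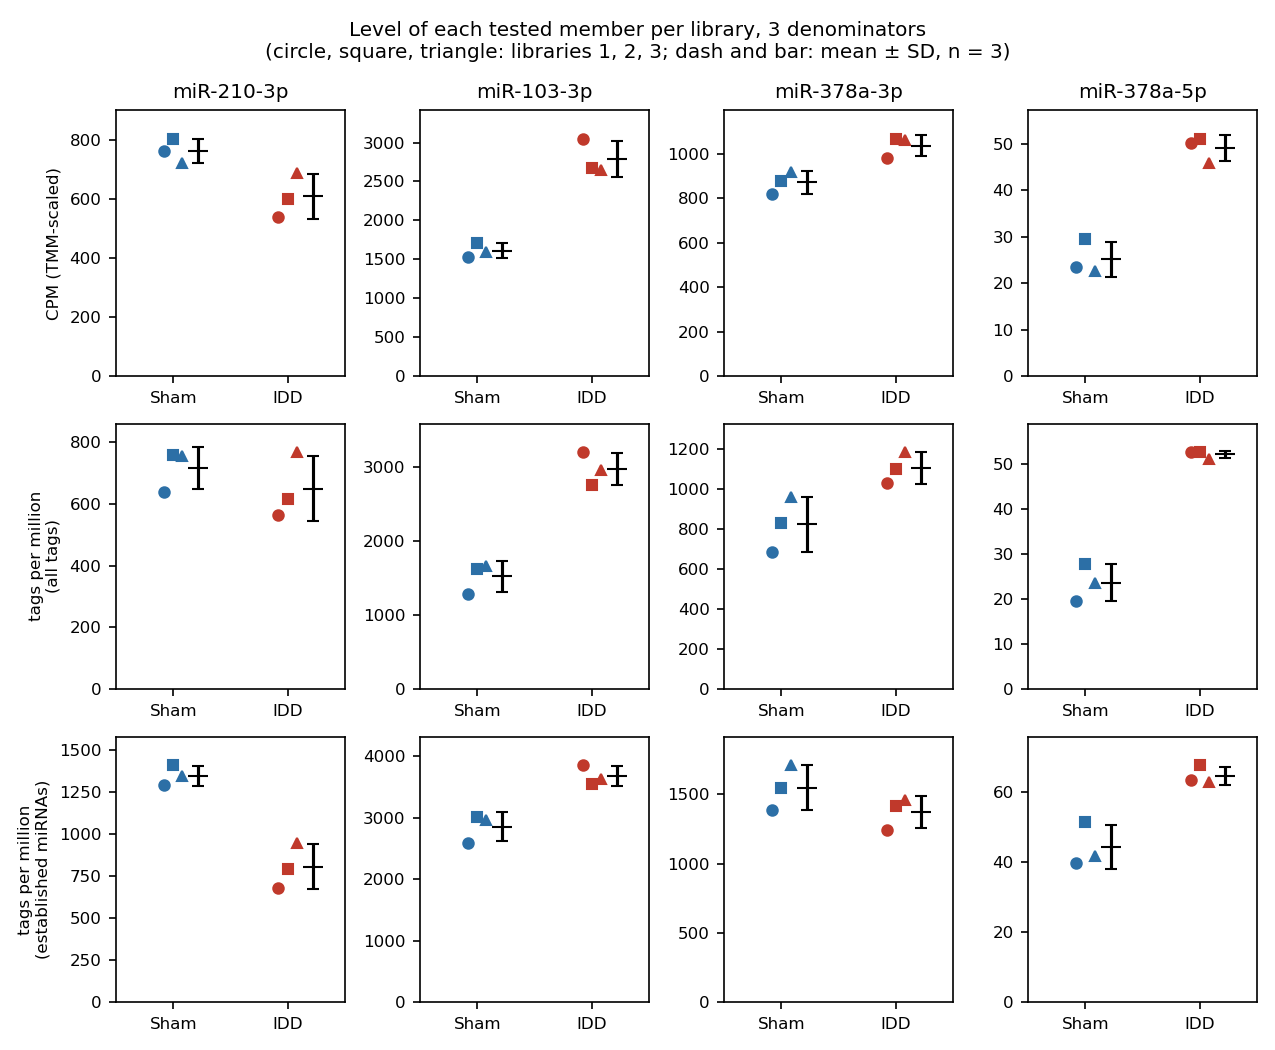
Level of each tested member (y axis, from 0) in the 3 Sham (blue) and 3 IDD (red) libraries, in CPM with TMM scaling (top row), as unscaled CPM of the whole library (middle row) and as CPM of established miRNA tags alone (bottom row), with mean ± SD. miR-103-3p and miR-378a-5p are higher in all IDD libraries in each row, miR-210-3p overlaps in the middle row, and miR-378a-3p overlaps in the bottom row.

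miR-378a-3p, the dominant arm of miR-378a, was counted 254, 209 and 255 times in IDD and 174, 209 and 163 times in Sham. Its level was 982, 1068 and 1063 CPM in IDD and 817, 879 and 919 CPM in Sham. The groups did not overlap, but the gap between the nearest libraries was small. The mean level was 1038 ± 48.1 CPM in IDD and 872 ± 51.1 CPM in Sham (SD, n = 3 each), with a log2 fold change of 0.25 that did not pass the test (SE 0.11, edgeR quasi-likelihood adjusted p = 0.0630). With library size alone it passed (log2 0.43, adjusted p = 0.0193), and with the total of established miRNAs its sign turned (−0.17, adjusted p = 0.253). Its level as CPM of established miRNA tags alone was 1241, 1415 and 1460 in IDD and 1386, 1541 and 1708 in Sham, where the groups overlapped. Its direction depended on the scaling.

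miR-378a-5p, the minor arm, was counted only 13, 10 and 11 times in IDD and 5, 7 and 4 times in Sham. In CPM these were 50.3, 51.1 and 45.8 in IDD and 23.5, 29.4 and 22.6 in Sham, and each IDD library was above each Sham library. The mean level rose from 25.2 ± 3.73 to 49.1 ± 2.84 CPM (SD, n = 3 each), with a log2 fold change of 0.93 (SE 0.22, edgeR quasi-likelihood adjusted p = 0.0449). It met the minimum count in the IDD libraries alone, so it entered the test only through the group where it is high, and its call is no support for a difference. The libraries of a group were more alike than counting error alone would give. The coefficient of variation was 5.78% in IDD, where counting error gives 29.7%, and 14.8% in Sham, where it gives 43.3%. The ratio of summed counts was 1.92 with a counting interval of 1.03 to 3.73. The SE, taken from the spread of libraries, does not carry the counting error of these 50 tags. The edgeR p-value does not follow from this SE alone. miR-195-5p had a lower F statistic (16.2 against 17.6) but a smaller edgeR adjusted p (0.00363). With edgeR's likelihood ratio test the SE of miR-378a-5p was 0.42 and the adjusted p 0.0483. The call was lost without any 1 of the 6 libraries (log2 0.87 to 1.04, edgeR adjusted p from 0.0589 to 0.110) and with DESeq2 (adjusted p = 0.212).

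**Figure D3:**
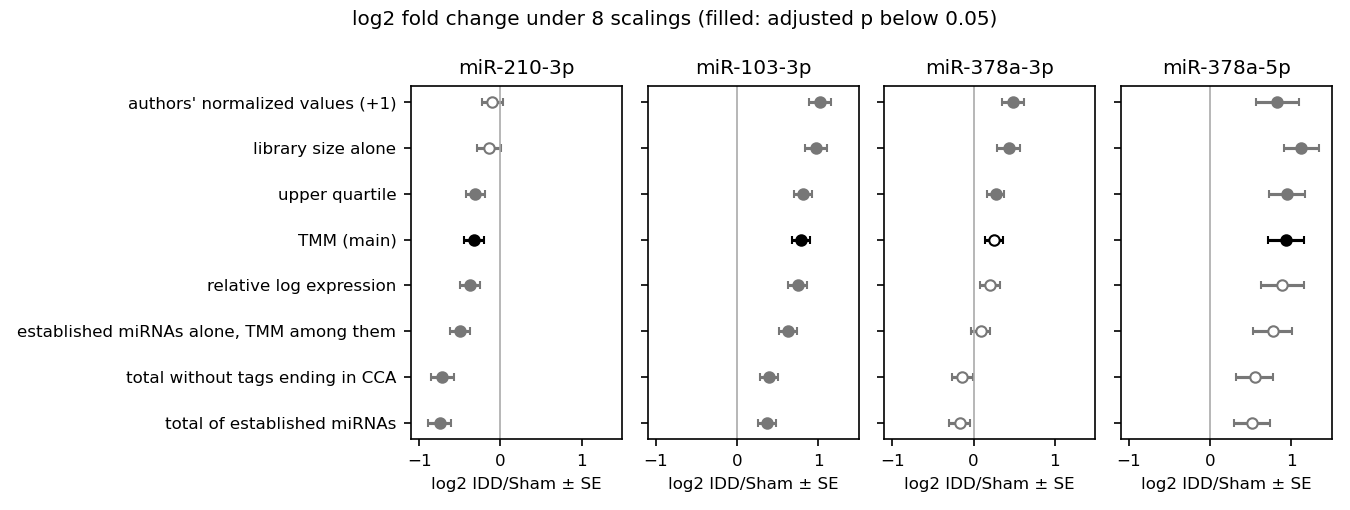
log2 fold change of IDD over Sham with its SE (x axis) for each tested member under 8 scalings (y axis), filled where the adjusted p is below 0.05. miR-103-3p is filled and above 0 in all 8, miR-210-3p is below 0 in all 8 but open in 2, and miR-378a-3p crosses 0.

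The same shifts run through all 4 members, since a scaling moves every sequence together. Against TMM, the median log2 fold change of the tested sequences moved by 0.19 with library size alone and by −0.42 with the total of established miRNAs, and the calls split into 52 higher and 29 lower or 18 higher and 64 lower. Relative to the median of each setting, miR-103-3p lay 0.63 to 0.83 above it over the alternatives, miR-378a-3p 0.09 to 0.31 above it and miR-378a-5p 0.19 to 1.05 above it. miR-210-3p lay below it by values of −0.49 to −0.28.

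Ratios of members within a library do not depend on the scaling. miR-210-3p stood at 0.176, 0.224 and 0.260 tags per miR-103-3p tag in IDD and at 0.50, 0.469 and 0.452 in Sham. The mean log2 ratio was lower in IDD by a difference of −1.12 (SE 0.17), which is 2.18-fold, and the groups were far apart. Against miR-378a-3p, miR-210-3p stood at 0.547, 0.560 and 0.647 in IDD and 0.931, 0.914 and 0.785 in Sham, a log2 difference of −0.58 (SE 0.11). miR-103-3p stood at 3.10, 2.50 and 2.49 tags per miR-378a-3p tag in IDD and 1.86, 1.95 and 1.74 in Sham, a log2 difference of 0.54 (SE 0.12). None of these 3 ratios overlapped between the groups, and an exact permutation test, two-sided, gave p = 0.1 for each (0.1 after Benjamini-Hochberg adjustment over the 3), the smallest that 3 against 3 libraries allow. None of these passes 0.05, and a ratio does not say which of a pair changed. No ratio with miR-107-3p could be formed.

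Both arms of miR-378a are cut from 1 precursor, and their ratio was compared between the groups. The 5p arm took 4.87%, 4.57% and 4.14% of miR-378a tags in IDD 1, 2 and 3 and 2.79%, 3.24% and 2.40% in Sham 1, 2 and 3. Each IDD library had the larger share, although the intervals of single libraries overlap widely. Summed over libraries the share was 4.52% of 752 tags in IDD (95% exact Clopper-Pearson interval 3.15% to 6.26%) and 2.85% of 562 tags in Sham (1.64% to 4.58%), and these intervals overlap as well. The log2 ratio of 5p over 3p was −4.34 ± 0.12 in IDD and −4.99 ± 0.19 in Sham (SD, n = 3 each), a difference of 0.65 (SE 0.13, exact two-sided permutation p = 0.1). limma over the arm ratios of 16 precursors called it (adjusted p = 0.0160), as it did 50% of those precursors. Of these precursors, 56.2% had groups that did not overlap. The 5p arm met the minimum count in the IDD libraries alone, so this limma call is no support for a difference. The permutation and limma tests do not carry the counting error of the 16 Sham and 34 IDD tags of the 5p arm.

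**Figure D4:**
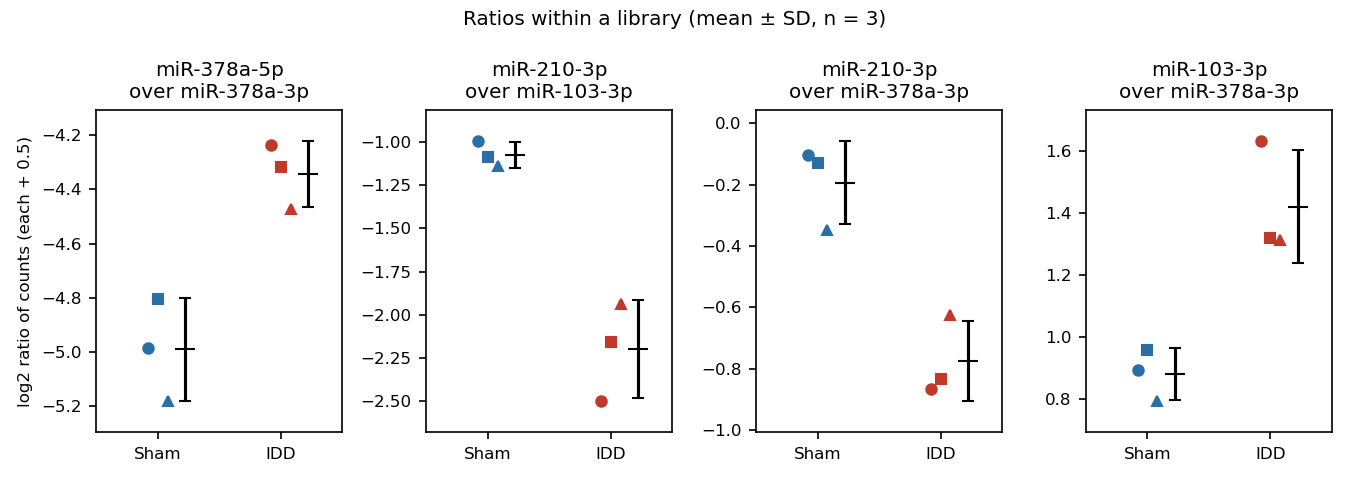
log2 ratio of counts, each plus 0.5 (y axis, a separate range per panel), in the 3 Sham (blue) and 3 IDD (red) libraries with mean ± SD. In every panel the groups do not overlap, with the arm ratio and the ratio of miR-103-3p over miR-378a-3p higher in IDD, and both ratios of miR-210-3p lower.

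A provisionally named tag of 18 nt equals the first 18 of the 21 bases of miR-378a-3p and so carries its seed, although its provisional name places it on another chromosome. It is printed beside the full arm, with the seed in capitals, because tags of either sequence could be split between the rows.
miR-378a-3p: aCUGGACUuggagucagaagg
18-nt tag: aCUGGACUuggagucaga
The tag was counted 42, 32 and 51 times in IDD and 49, 60 and 36 times in Sham. Its level was 162, 164 and 213 CPM in IDD and 230, 252 and 203 CPM in Sham, where the groups overlapped (log2 −0.35, SE 0.17, edgeR adjusted p = 0.0824). Of the tags of both sequences together it took 14.2%, 13.3% and 16.7% in IDD and 22.0%, 22.3% and 18.1% in Sham, all IDD values being lower. The log2 ratio of the tag to miR-378a-3p differed by −0.60 (SE 0.16, exact two-sided permutation p = 0.1). With its tags added to miR-378a-3p, an alternative chosen after seeing the data, the log2 fold change of that arm was 0.15 (edgeR adjusted p = 0.266) and the difference in arm ratio was 0.76. No other listed sequence differs from a member by 1 base, contains it or lies inside it.

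By level, the order in CPM was miR-103-3p, miR-378a-3p, miR-210-3p and miR-378a-5p in both groups, at ranks 34, 51, 56 and 130 of the 131 tested sequences by mean CPM. Neighbours in this order did not overlap within either group, the nearest being miR-378a-3p (817 to 919 CPM) and miR-210-3p (722 to 803 CPM) in Sham. A tag spans the whole miRNA, so these levels need no length correction, but adapter ligation can favour some sequences over others. The sequences that ran closest to miR-210-3p were miR-450a-5p, miR-532-5p and miR-486, the last from the list of red blood cell markers. Their root mean square differences of centred log2 CPM were 0.09, 0.09 and 0.10 (median 0.36 over 107 sequences). Closest to miR-378a-3p were miR-218a-5p, miR-24-2-5p and miR-23a-3p (0.04, 0.07 and 0.07, median 0.29). Closest to miR-378a-5p were miR-103-3p, miR-1b and miR-152-3p (0.08, 0.10 and 0.11, median 0.38).

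miR-486 stood at 700, 695 and 742 CPM in IDD and at 949, 908 and 947 CPM in Sham. The red blood cell markers together summed to 695 to 759 CPM in IDD and 921 to 949 CPM in Sham, and nearly all of these tags were miR-486. miR-144 was not listed, and miR-451-5p, the most erythroid-specific of the list, was counted 5, 0 and 4 times in IDD and 0, 3 and 0 times in Sham, a higher mean in IDD with overlapping groups. miR-486 was thus lower in every IDD library, as miR-210-3p was in CPM, and miR-451-5p was not. Their part in the miR-210-3p result was not tested. The endothelial marker miR-126, listed under its rat name miR-126a, was too low to test. Its 3p arm was counted 6, 5 and 5 times in IDD and 10, 8 and 7 times in Sham, or 23.2 ± 2.36 and 40.03 ± 6.69 CPM (SD, n = 3 each), lower in every IDD library, and its 5p arm was listed in IDD 3 alone. Its part in the miR-210-3p result was not tested. The leukocyte markers (3 of 5 names listed, miR-142 and miR-155 not) summed to 81.8 to 101 CPM in IDD and 46.2 to 56.4 CPM in Sham. The largest part was miR-342-3p (means 72.5 CPM in IDD and 28.6 CPM in Sham), which met the minimum count in the IDD libraries alone. miR-150-5p (17.4 and 13.1 CPM) and miR-223-5p were too low to test. miR-223-5p went the other way, blank in each IDD library and with 2 tags, the lowest listed count, in each Sham library. A 0 among these marker counts is a blank cell, which may hide an unlisted tag. The epithelial markers (1 of 5 listed) summed to 0 in IDD and 127 to 361 CPM in Sham. The liver miRNA miR-122-5p, also a regulator of lipid metabolism, stood at 7750 ± 110 CPM in IDD and 7991 ± 245 CPM in Sham (SD, n = 3 each), and where its tags came from was not examined.

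miR-103 also belongs by sequence to a wider group of miRNAs that carry the motif AGCAGC at their 5′ end, and the group is shown with this motif in capitals because its position differs.
miR-103-3p: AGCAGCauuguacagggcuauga
miR-16-5p: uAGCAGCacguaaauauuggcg
miR-195-5p: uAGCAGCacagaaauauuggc
miR-322-5p: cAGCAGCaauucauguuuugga
The motif starts at base 1 in miR-103-3p and at base 2 in the 6 listed 5p relatives, so their seeds are shifted by 1 base and are not the same. The letters AGCAGC occur in 8 of the 442 listed sequences (1.81%). Unlike miR-103-3p, miR-16-5p, which restrains the cell cycle, stood at 75.0 ± 4.27 CPM in Sham and 19.7 ± 6.43 CPM in IDD (SD, n = 3 each), a fall by edgeR (log2 −1.86, SE 0.24, adjusted p = 3.05e-05). It met the minimum count in the Sham libraries alone, so it entered the test only through the group where it is high. miR-322-5p, the rodent relative of human miR-424, fell as well, with 186 ± 20.2 CPM in Sham and 90.9 ± 1.68 CPM in IDD, at a log2 fold change of −1.04 (SE 0.17, edgeR adjusted p = 0.000202). miR-195-5p, which shares the seed of miR-16, rose, with 121 ± 17.3 CPM in Sham and 213 ± 41.7 CPM in IDD, at a log2 fold change of 0.80 (SE 0.20, edgeR adjusted p = 0.00363), a call lost with the totals that leave out tags ending in CCA or provisional names. The other 3 of the 6 listed relatives were too low to test. All 3 tested relatives were thus called, beside 59.5% of all 131 tested sequences.

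Among other miRNAs reported to respond to low oxygen, 13 of 16 names were listed as 18 sequences, and 14 of these were tested. Of the 14, 6 were higher in IDD, 2 were lower and 6 did not pass, with a median log2 fold change of 0.19 against 0.03 over all 131. The 8 calls among 14 are near the 59.5% called over all tested sequences. The higher ones by lowest adjusted p were miR-21-5p, a miRNA that rises in fibrosis (log2 1.23, SE 0.12, edgeR adjusted p = 4.13e-06), miR-26a-5p (0.70, SE 0.11, adjusted p = 0.000100), miR-26b-5p (0.61, SE 0.11, adjusted p = 0.000328), miR-24-3p (0.50, SE 0.12, adjusted p = 0.00208) and miR-199a-3p (0.33, SE 0.11, adjusted p = 0.0226). The lower ones were miR-322-5p and miR-23b-3p (−0.57, SE 0.19, adjusted p = 0.0290), the latter named because the count is small, and miR-23a-3p was the other higher one (0.31). miR-23a-3p and miR-23b-3p are near-identical in sequence, so their counts are uncertain where tags could be split. The same holds for miR-24-3p and miR-199a-3p, each of which a provisional tag repeats without its last bases. In IDD these tags had means of 3667 and 3666 CPM, against 1336 and 3378 CPM for the miRNAs. Both tags were also called higher (log2 0.54 and 0.33). With the total of established miRNAs the 14 gave 2 higher and 4 lower with a median of −0.23, and the signs of miR-199a-3p and miR-23a-3p turned. All 131 sequences moved the same way under this total, to 18 higher and 64 lower with a median of −0.39.

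Among miRNAs of energy and lipid metabolism, 8 of 11 names were listed and 4 sequences were tested. miR-29a-3p, of a family that targets collagen mRNAs and also insulin signalling, stood at 602 ± 72.5 CPM in Sham and 1366 ± 85.4 CPM in IDD, a rise by edgeR (log2 1.17, SE 0.12, adjusted p = 7.47e-06). miR-122-5p (log2 −0.04, adjusted p = 0.741), miR-143-3p (−0.45, adjusted p = 0.112) and miR-375-3p (−0.36, adjusted p = 0.345) did not pass. The median of the 4 was −0.20, and 1 of them was called, beside 59.5% of all tested sequences. With the total of established miRNAs all 4 were called, 1 higher and 3 lower, where 82 of the 131 tested sequences were called and 64 of these were lower.

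**Figure D5:**
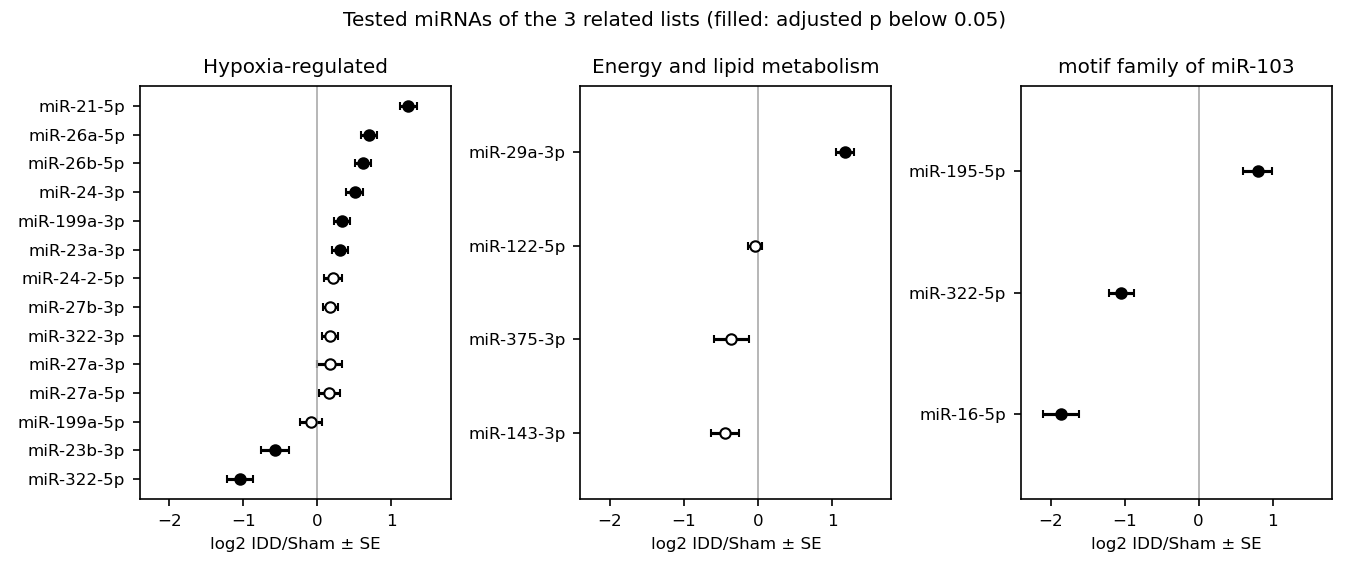
log2 fold change of IDD over Sham with its SE (x axis) for the tested miRNAs of each of the 3 lists, filled where the adjusted p is below 0.05. Of the hypoxia-related miRNAs 6 are filled above 0 and 2 below, miR-29a-3p is the only filled point of the metabolism list, and the relatives of miR-103 lie on both sides of 0.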

How the data were processed

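Small RNA libraries with inserts near 22 nt were built from total RNA of nucleus pulposus and read for 50 cycles, per the labels' protocols. Novoalign 3.02.12, cutadapt 1.9.3 and the Rnor_6.0 build are listed without roles, per the submitters' processing notes, and no source used here gives the miRNA caller. Per the file headers the deposited counts are raw tag counts. A blank cell was set to 0, and the lowest listed count is 2. The authors' second table holds normalized tag counts rounded to whole numbers, treated as a score of unstated basis and used only as an alternative.

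Repeated rows were merged, sequences filtered with filterByExpr (edgeR 4.0.16, R 4.3.3, minimum count 10) and scaled with TMM, and IDD was tested against Sham by group alone. The biological coefficient of variation was 10.2%. Library totals of 169783 to 253807 make 3 counts worth 11.8 to 17.7 CPM. This floor and the intervals describe counting error alone, because PCR duplicates of a molecule could not be removed. Arm ratios used limma 3.58.1, and DESeq2 1.42.0 was an alternative. The fits were tried on simulated data that did not copy the group difference in CCA tags, so this does not bear on the choice of scaling.

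Both groups use the numbers 1 to 3. Deviations from the group mean correlated between same-numbered libraries at 0.111, 0.112 and 0.204, all above the 0.1 required. IDD 2 with Sham 1 reached 0.109, so the distinction is slight, and same-numbered libraries were treated as pairs in an alternative fit. The pairing comes from these values, not from a label.

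The members and lists were chosen with earlier results of these data known. Named were all members, up to 6 called miRNAs per list by lowest adjusted p, the 3 sequences closest to each tested member, near-identical sequences and abundant markers. Other marker values were added after the values were seen.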

Additional observations from a re-analysis of the deposited data

How the results depend on the processing

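The rise of miR-103-3p and the directions of the ratios between members held under every alternative tried. The direction of the miR-378a arm ratio did not change either. Its alternatives reuse the same few tags of the 5p arm, so this is no support for a difference. The call of miR-210-3p was lost with library size alone (log2 −0.14), on the normalized table (−0.10 with 1 added, −0.090 with 8 added), without a filter (−0.27) and with at least 30 counts required (−0.25), and ran from −0.43 to −0.24 as each library was left out. miR-378a-3p reversed with the total of established miRNAs (−0.17) and with the total without CCA ends (−0.14). It passed with library size alone (0.43), upper quartile (0.27), no filter (0.32), at least 30 counts (0.33), every row kept (0.28), the normalized table (0.48 and 0.46) and without IDD 1 (0.29, adjusted p = 0.0486, edgeR), and ran from 0.20 to 0.29 with a library left out. The call of miR-378a-5p was lost with relative log expression (0.89), the total of established miRNAs (0.52), the total without CCA ends (0.55), established miRNAs alone (0.77) and DESeq2 (0.91), and ran from 0.87 to 1.04 with a library left out. At least 30 counts left it untested. limma made the arm ratio a call at 0.65, although its 5p arm had met the minimum count in the IDD libraries alone. Why each value moved was not tested.

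The 78 calls became 285 of 442 without a filter (117 higher, 168 lower). The 38 higher calls became 18 with either total that leaves out provisional or CCA tags (64 and 61 lower), 60 and 59 on the normalized table, and 24 to 34 with a library left out, 24 being without Sham 2. The 8 hypoxia-list calls among 14 tested became 10 with library size alone and 12 and 11 on the normalized table. Of all 131 sequences, 81, 90 and 89 were called there. The list calls became 5 with the total without CCA ends (79 of 131 over all). With a library left out they were 5 to 7 (58 to 74 over all), 5 being without IDD 2 (66 over all). The single metabolism-list call among 4 tested became 4 of 4 with each of the 2 reduced totals (82 and 79 of 131 over all). It became 2 of 4 with established miRNAs alone (55 of 108 over all) and 2 of 8 without a filter (285 of 442 over all). At least 30 counts left 1 relative of miR-103 in the test, and it was called, as were 62 of the 88 sequences tested. Of the 3 calls among the relatives with the main filter, that of miR-16-5p had entered only through the Sham libraries. With the replicate block, which followed the pairing, 80 sequences were called and no member's call changed (miR-210-3p −0.33, adjusted p = 0.0452; miR-103-3p 0.79; miR-378a-3p 0.25; miR-378a-5p 0.95; edgeR). The ratios with the pairing gave the same differences at the smallest exact p of 0.25. Ratios with miR-107-3p were not run, since no row holds it. Depth limits miR-378a-5p and miR-210-5p most.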
